A study of Mus musculus with 17 samples.

Results

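The genes described here are 10 genes of iron handling, chosen by name for their roles: Fth1, Ftl1, Tfrc, Slc40a1, Slc11a2, Ncoa4, Ireb2, Aco1, Steap1 and Hmox1. They are 10 of 55357 genes in the files, and all 10 passed the filter on low counts that left 22784 genes for testing. These genes and the lists further below were chosen with earlier results of these data known. Counts of called genes among them are therefore description only, also where set beside the share of all genes. RNA was sequenced from β cells of male mice whose isolated islets were kept in 2.8 or 16.7 mM glucose before sorting. The control mice, labelled WT, carried the RIP-Cre transgene (Cre under the rat insulin promoter) and a Cre-dependent tdTomato reporter, and the knockout mice (Pcbp2βKO) carried in addition the floxed Pcbp2 alleles (Pcbp2 fl/fl). Both were on a C57BL/6 background, so every library comes from cells that expressed Cre and were sorted as tdTomato+ and DAPI-. There were 3 control libraries at 2.8 mM, 4 control libraries at 16.7 mM, and 5 knockout libraries at each glucose concentration. No source used here says whether libraries of a group came from separate animals, so p-values measure the spread between these libraries. Comparing the groups asks how the transcripts of iron uptake, storage and export differ with glucose and with loss of Pcbp2.

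Cells take up transferrin-bound iron through the transferrin receptor, reduce it and move it out of the endosome, keep a small usable pool, store the excess in ferritin shells and release it through ferroportin. Much of this is set after transcription: iron regulatory proteins bind a hairpin, the iron-responsive element, and either block translation of the transcript or protect it from decay, depending on where in the transcript the hairpin lies. Pcbp2 and its paralog Pcbp1 are RNA-binding proteins that also act as iron chaperones, handing iron to ferritin, and Pcbp2 has been linked to the iron importer and exporter as well. Pancreatic β cells need iron for iron-sulphur and haem proteins of the respiratory chain and are sensitive to an excess of it.

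The hairpins that a strict pattern search found, in 4 genes of the set, are shown first. This element is where iron regulatory proteins are known to bind. An element that departs from the pattern would be missed, in these 4 genes and in the rest of the set. A script searched the GENCODE M39 transcripts (GRCm39) for C, 5 bases, the loop CAGTGN with N not G, and 5 bases that pair with the first 5 (G-U pairs allowed). The loop is in capitals, the sequences are 5′ to 3′ on the transcript's strand, and each is 27 bases long.
Fth1 (5′ UTR, exon 1 of 4 of the leading transcript, chr19:9960097-9960123, plus strand): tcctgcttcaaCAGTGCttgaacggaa
Ftl1 (5′ UTR, exon 1 of 4 of the leading transcript, chr7:45109204-45109230, minus strand): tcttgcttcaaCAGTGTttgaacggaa
Slc40a1 (5′ UTR, exon 1 of 8 of the leading transcript, chr1:45964626-45964652, minus strand): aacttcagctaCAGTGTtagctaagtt
Tfrc (3′ UTR, exon 19 of 19 of the leading transcript, chr16:32450038-32450064, plus strand): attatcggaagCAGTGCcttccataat
Tfrc (3′ UTR, exon 19, chr16:32450417-32450443, plus strand): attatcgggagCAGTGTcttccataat
Tfrc (3′ UTR, exon 19, chr16:32450482-32450508, plus strand): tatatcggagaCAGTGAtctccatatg
Tfrc (3′ UTR, exon 19, chr16:32450529-32450555, plus strand): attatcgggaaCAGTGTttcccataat
The pattern was found in 0.95% of the 180384 protein-coding transcripts of the annotation. It lay in the leading transcript of each of these 4 genes, and transcripts that hold it made up 99.6% of the mean TPM (a level per transcript length, scaled to a fixed library total) of Fth1, 99.4% of that of Ftl1, 89.7% of that of Tfrc and 88.0% of that of Slc40a1. No transcript of Slc11a2, Ncoa4, Ireb2, Aco1, Steap1 or Hmox1 in the files matched these letters, which says only that this strict pattern is not there.

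Per length, ferritin was far above the rest of the set. In control cells at 2.8 mM glucose the TPM of Ftl1, the ferritin light chain that seeds the iron core, was 10997 ± 1323 (SD, n = 3), and that of Fth1, the heavy chain that oxidises iron on its way into the shell, was 1419.8 ± 81.9. Then came Steap1, a member of the STEAP family, at 71.5 ± 24.8 TPM. Hmox1, the inducible haem oxygenase that frees iron from haem, was at 54.0 ± 5.69 TPM. Tfrc, the transferrin receptor, was at 49.9 ± 15.5 TPM. Ncoa4, the receptor that carries ferritin to the lysosome for breakdown, had 44.9 ± 4.01 TPM and Slc40a1, ferroportin, the iron exporter, 40.5 ± 13.0. Aco1, which is iron regulatory protein 1 when it lacks its cluster, had 15.9 ± 2.53 TPM, Slc11a2, the divalent metal transporter DMT1, 11.6 ± 1.67, and Ireb2, iron regulatory protein 2, 8.76 ± 0.852. From Steap1 to Slc40a1, neighbours in this order differed by less than the larger of their SDs, and the other neighbours differed by more. In control cells at 16.7 mM the order after ferritin was Ncoa4 (32.0 ± 4.62 TPM, n = 4), Slc40a1 (28.7 ± 10.8), Hmox1 (22.7 ± 16.4), Tfrc (17.7 ± 10.5), Aco1 (9.58 ± 2.44), Slc11a2 (8.62 ± 1.35), Steap1 (7.62 ± 11.5) and Ireb2 (5.37 ± 1.65), where each gene differed from the next by less than the larger of their SDs. In knockout cells Ftl1 was at 12089 ± 1094 and 1778 ± 1013 TPM, Fth1 at 1888 ± 239 and 420.0 ± 136 TPM, and Steap1 at 72.5 ± 25.6 and 4.74 ± 6.17 TPM, for 2.8 and 16.7 mM (n = 5 each).

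The targeted gene followed the labels. Pcbp2 was at 50.7 to 73.4 CPM in control libraries at 2.8 mM and at 15.5 to 19.2 in knockout libraries, and at 35.0 to 45.4 against 5.81 to 10.02 at 16.7 mM. CPM here are counts scaled to a common library size by TMM, which does not allow for gene length. The log2 fold change of Pcbp2 was −1.84 ± 0.17 (SE) at 2.8 mM and −2.40 ± 0.16 at 16.7 mM (edgeR quasi-likelihood test, adjusted p = 3.61e-06 and 7.55e-08). Pcbp1, the paralog with the same chaperone role, was at 71.5 to 105 CPM in all libraries and was not called in any comparison.

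The libraries held 47385513 to 82419400 estimated counts. β cell markers summed to 66850 to 97070 CPM in the lowest group and to 270200 to 522800 CPM in control cells at 16.7 mM, and endothelial markers to at most 1.14, stellate to at most 5.19, erythroid to at most 3.11 and acinar to at most 23.6 CPM. In the order control and knockout at 2.8 mM, then control and knockout at 16.7 mM, ductal markers summed to 14.1 to 114, 8.06 to 83.7, 47.7 to 800.2 and 12.7 to 143 CPM, δ cell markers to 78.2 to 276, 112 to 945, 102 to 231 and 73.1 to 315 CPM, and the PP cell marker Ppy to 797 to 835, 992 to 5112, 224 to 631 and 290.3 to 1142 CPM. Proliferation genes, at 3.99 to 5.92, 4.07 to 12.8, 8.19 to 62.2 and 2.19 to 271 CPM, were all 6 called higher with glucose in knockout cells. The 9 macrophage markers, none at 0 throughout, summed to 87.9 to 167, 50 to 199, 38.7 to 109 and 21.6 to 111 CPM in the same order, so the glucose groups overlapped. At 16.7 mM, 1 of the 9 was called lower in control cells, and in knockout cells 6 were called lower and C1qa higher. C1qa was also called lower in the knockout at 2.8 mM (log2 fold change −2.25, edgeR, adjusted p = 0.00301). Leaving out C1qa was chosen with its values known. The other 8 then summed to 21.4 to 81.6 CPM in control and 31.8 to 186 in knockout libraries at 2.8 mM. At 16.7 mM they summed to 2.46 to 18.6 and 1.76 to 17.6 CPM. Gcg, the glucagon gene of α cells, was at 1512 ± 967 and 4868 ± 3216 CPM at 2.8 mM and at 587 ± 575 and 643 ± 469 at 16.7 mM, for control and knockout. Replicate 4 of the control group and replicates 4 and 5 of the knockout group at 16.7 mM stood apart from their groups toward the 2.8 mM libraries, on a first principal component that held 30% of the variance (9.87 against at least 97.2, and 21.4 and 33.2 against at least 90.9). Results below are therefore also given without these 3 libraries where that matters. They were picked for lying toward the 2.8 mM libraries, so leaving them out favours larger glucose differences and is no independent support. In bulk RNA, fewer cells of a type and less RNA per cell cannot be told apart.

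**Figure D1:**
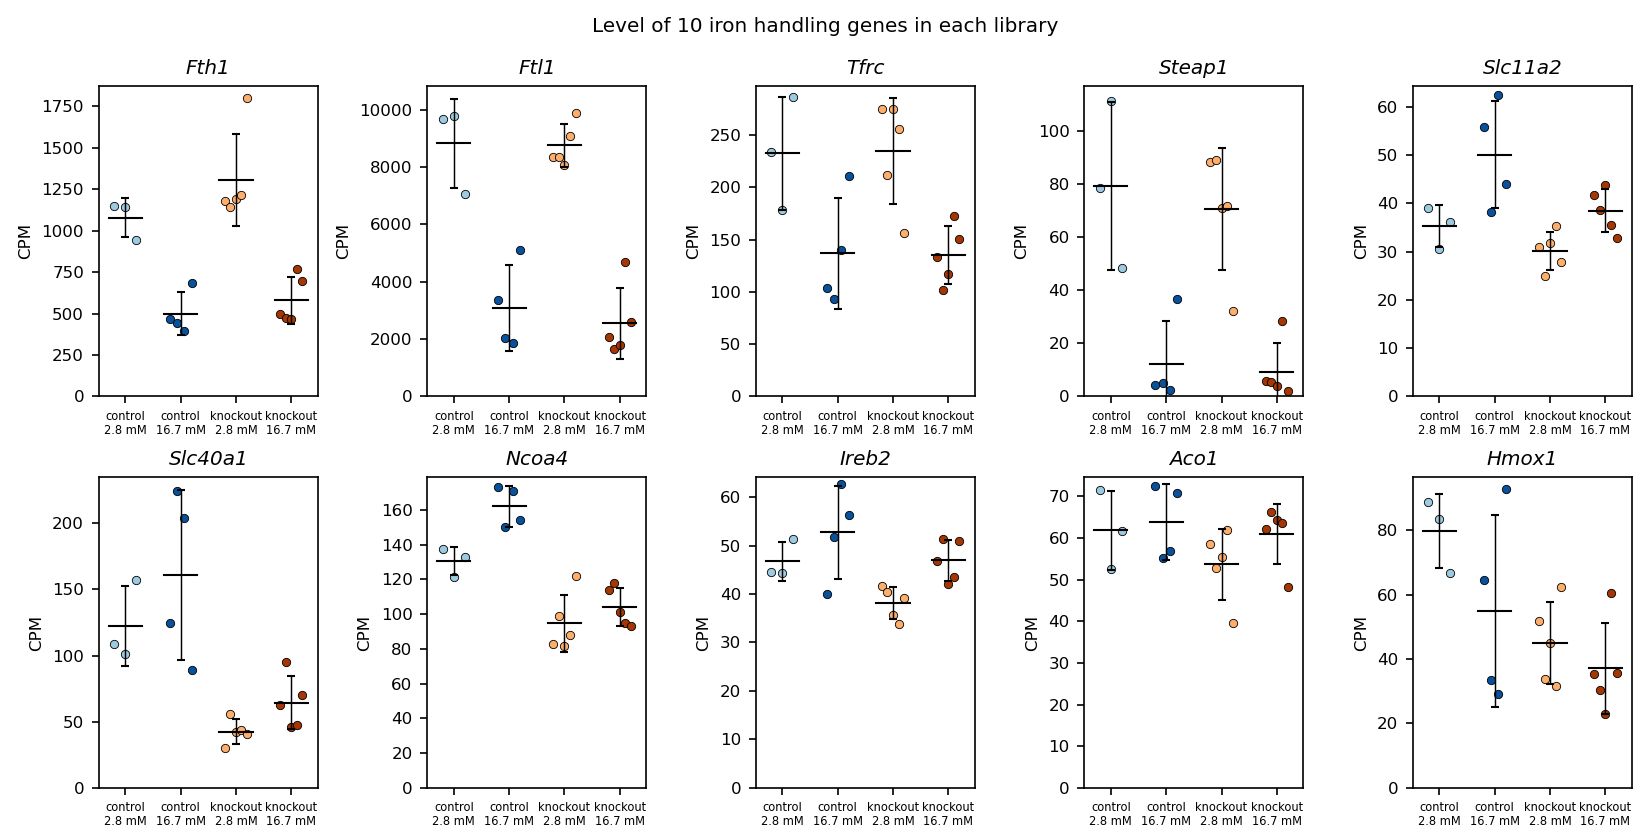
TMM-scaled CPM (linear axis from 0) of the 10 iron handling genes, 1 point per library, in control and Pcbp2 knockout β cells at 2.8 and 16.7 mM glucose. Bars are the group mean ± SD (n = 3, 4, 5 and 5). Fth1, Ftl1 and Steap1 are lower at 16.7 mM in both genotypes with no overlap between the glucose groups, and Slc40a1 is lower in the knockout groups.

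At the higher glucose concentration the ferritin subunits and Steap1 were lower in both genotypes, and the transferrin receptor was lower in knockout cells. A gene was called at a fold over 1.5 and a Benjamini-Hochberg adjusted p under 0.05 over all 22784 genes. In control cells 3 of the 10 genes were called at 16.7 against 2.8 mM, all of them lower (Fth1, Ftl1 and Steap1), where 13.8% of all tested genes were called, 6.69% being called lower. In knockout cells 4 of the 10 were called, again all lower (the same 3 and Tfrc), where 23.8% of all tested genes were called and 10.4% were called lower. With the replicate number as a block, 5 of the 10 were called in control cells, all lower, with Tfrc and Hmox1 added. Over all tested genes, 5024 were then called, beside 3153 without the block. This block treats control libraries of the same number as pairs, which is an assumption. The block in effect leaves out control replicate 4 at 16.7 mM, which has no partner. The 4 comparisons share groups, so their values are set side by side only. The other 7 genes in control cells had log2 fold changes from −0.76 to 0.51, and the median of all tested genes was 0.04.

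Fth1 was at 1150.0, 1142 and 941 CPM in the 3 control libraries at 2.8 mM and at 467, 445, 395 and 686 CPM in the 4 at 16.7 mM. In knockout cells it was at 1179.7, 1145, 1193, 1218 and 1802 CPM at 2.8 mM and at 498, 475, 465, 771 and 696 CPM at 16.7 mM. The glucose groups did not overlap in either genotype, and the highest values at 16.7 mM were those of the libraries that stood apart. The log2 fold change of Fth1 was −1.11 ± 0.22 in control cells (edgeR, adjusted p = 0.00336) and −1.17 ± 0.19 in knockout cells (adjusted p = 0.000166), that is, 2.16-fold and 2.25-fold lower. Without the 3 libraries that stood apart it was −1.33 and −1.48.

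Ftl1 had the larger fold of the ferritin pair. It was at 9660.4, 9771 and 7044 CPM in control libraries at 2.8 mM and at 3363, 2020.1, 1856 and 5093 CPM at 16.7 mM. In knockout libraries it went from 8359, 8363, 8072, 9064 and 9891 CPM at 2.8 mM to 2086, 1636, 1795, 4672 and 2587 CPM at 16.7 mM. These groups did not overlap either, and replicate 4 was the highest at 16.7 mM in both genotypes. On the log2 scale Ftl1 changed by −1.52 ± 0.34 in control cells (edgeR, adjusted p = 0.00677) and −1.78 ± 0.29 in knockout cells (adjusted p = 0.000214), and without the 3 libraries it was −1.89 and −2.29. Ferritin is also abundant in macrophages, whose markers are given above, and the part of these cells in the ferritin values was not tested. Without C1qa, the sum of the other 8 macrophage markers was lower at 16.7 mM in both genotypes, with no overlap. C1qa was left out with its values known, so this separation is description only. In control cells 8 of the 9 markers had log2 fold changes below 0, and Mrc1 had 3.65 (not called). The sums of all 9 overlapped between the glucose groups. Marker levels do not show how much of the ferritin RNA came from these cells.

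Since subunits of both chains build 1 shell, the heavy chain's share of ferritin transcripts, Fth1 over Fth1 plus Ftl1 in TPM, was taken as 1 value per library. It was 11.2%, 10.96% and 12.35% in control libraries at 2.8 mM and 12.7%, 18.8%, 18.2% and 12.4% at 16.7 mM. In knockout libraries it was 13.0%, 12.7%, 13.5%, 12.4% and 16.1% at 2.8 mM and 20.1%, 23.3%, 21.3%, 14.8% and 22.1% at 16.7 mM. The share was thus higher in each 16.7 mM library of control cells than in each at 2.8 mM, by a margin of less than 0.1 points at the closest, and in knockout cells replicate 4 at 16.7 mM lay below replicate 5 at 2.8 mM. In knockout cells the difference was 6.78 percentage points (exact permutation test, two-sided, p = 0.0159, adjusted over 4 comparisons 0.0635), and in control cells 4.05 points (exact p = 0.114, adjusted 0.114, where 3 against 4 libraries cannot go below 0.0286). The knockout differed from control by 2.04 points at 2.8 mM (exact p = 0.0536, adjusted 0.107) and by 4.77 points at 16.7 mM (exact p = 0.0952, adjusted 0.114). None of the 4 passed 0.05 after adjustment.

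Tfrc, whose product binds iron-loaded transferrin at the cell surface, was at 234, 178 and 286 CPM in control libraries at 2.8 mM and at 104, 93.6, 139.9 and 211 CPM at 16.7 mM. Knockout libraries had 275, 212, 275, 256 and 156 CPM at 2.8 mM and 133, 102, 117, 173 and 150.3 CPM at 16.7 mM. The glucose groups overlapped in both genotypes, in controls through replicate 4 at 16.7 mM. The log2 fold change of Tfrc was −0.80 ± 0.22 in knockout cells (edgeR, adjusted p = 0.0101, called) and −0.76 ± 0.26 in control cells (adjusted p = 0.0555, not called). In control cells it was called with the replicate number as a block (log2 fold change −1.04, edgeR, adjusted p = 0.00265), without replicate 4 at 16.7 mM (−1.03, adjusted p = 0.00533) and without the 3 libraries that stood apart (−1.07, adjusted p = 0.00271). Each of these settings leaves out replicate 4 at 16.7 mM, the block in effect, so they are not separate support. Tfrc was called in control cells too with total counts (edgeR, adjusted p = 0.0179), the DESeq2 Wald test (0.0328), no filter (0.0345), a minimum of 5 CPM (0.0456) and limma on log2(TPM + 1) (0.0027). With total counts and log2(TPM + 1) the median log2 fold change of all genes was itself −0.35 and −0.24.

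Steap1 had the largest fold among the 10 genes. It was at 78.5, 111 and 48.3 CPM in control libraries at 2.8 mM and at 4.40, 5.04, 2.42 and 36.7 CPM at 16.7 mM. In knockout libraries the values were 88.5, 89.0, 71.2, 71.8 and 32.4 CPM at 2.8 mM and 5.70, 5.43, 3.74, 28.5 and 1.98 CPM at 16.7 mM. The glucose groups did not overlap, but replicate 4 of each genotype at 16.7 mM was several times above the others. The log2 fold change of Steap1 was −2.70 ± 0.85 in control cells (edgeR, adjusted p = 0.0367) and −2.96 ± 0.74 in knockout cells (adjusted p = 0.00522). The control call was lost without replicate 1 or 2 at 2.8 mM (edgeR, adjusted p = 0.0779 and 0.129) and without replicate 1, 2 or 3 at 16.7 mM (0.0958, 0.102 and 0.0911). Without the 3 libraries that stood apart, a choice that favours larger glucose differences, the log2 fold change was −4.35 (edgeR, adjusted p = 4.48e-06). Its relatives on the uptake list, Steap2, Steap3 and Steap4, were not called with glucose.

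Slc11a2, which carries ferrous iron out of the endosome, was not called with glucose. It was at 39.1, 30.5 and 36.2 CPM in control libraries at 2.8 mM and at 55.8, 38.2, 62.4 and 43.9 CPM at 16.7 mM, and at 24.9 to 35.4 and 32.9 to 43.7 CPM in knockout libraries. With glucose its log2 fold change was 0.51 ± 0.17 in control cells (edgeR, adjusted p = 0.0522) and 0.35 ± 0.14 in knockout cells (adjusted p = 0.0664), neither of them called. Without replicate 2 at 16.7 mM the control value was 0.62 and was called (adjusted p = 0.0282). The sign of Slc11a2 depended on scaling: on log2(TPM + 1), where the median of all genes was −0.24 in control and −0.33 in knockout cells, its change with glucose was −0.39 and −0.66, the latter called lower by limma (adjusted p = 0.000788).

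The remaining genes of the set were not called with glucose in either genotype. Slc40a1 had log2 fold changes of 0.39 ± 0.30 and 0.59 ± 0.25 (edgeR, adjusted p = 0.423 and 0.0803), Ncoa4 of 0.31 ± 0.14 and 0.14 ± 0.12 (0.153 and 0.416), Ireb2 of 0.17 ± 0.14 and 0.30 ± 0.12 (0.461 and 0.0656) and Aco1 of 0.04 ± 0.16 and 0.18 ± 0.14 (0.896 and 0.344), for control and knockout. The iron regulatory proteins Ireb2 and Aco1 ranged only from 33.8 to 62.6 and from 39.7 to 72.5 CPM over all 17 libraries. On log2(TPM + 1) the changes of these 4 genes were all below 0, and limma called Ireb2 and Aco1 lower in both genotypes and Ncoa4 lower in knockout cells. Hmox1 was at 88.7, 83.6 and 66.7 CPM in control libraries at 2.8 mM and at 64.7, 33.4, 29.0 and 92.9 CPM at 16.7 mM, and the groups overlapped through replicate 4, the last value. Its log2 fold change was −0.53 ± 0.36 (edgeR, adjusted p = 0.348), and −0.99 and called with the replicate number as a block (adjusted p = 0.03) or −0.93 without the 3 libraries that stood apart (adjusted p = 0.0315). Both of these alternatives leave out replicate 4 at 16.7 mM, the block in effect.

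**Figure D2:**
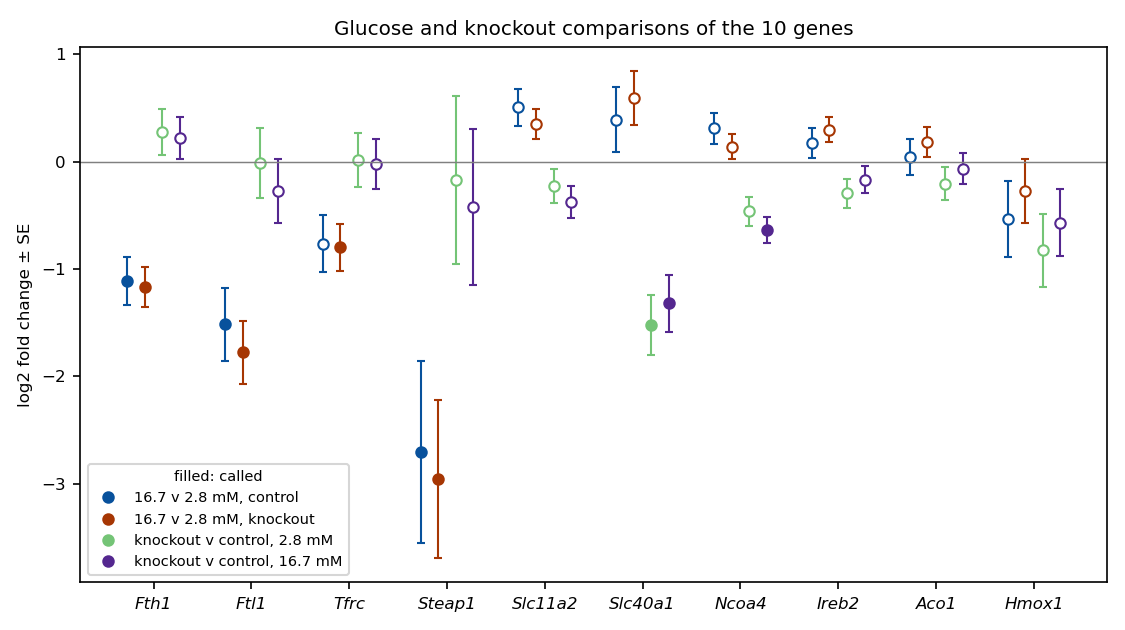
Log2 fold change ± SE (edgeR fit over all 17 libraries) of the 10 genes in the 2 glucose comparisons and the 2 knockout comparisons, with filled points for called genes. Fth1, Ftl1 and Steap1 lie below 0 with filled points in both glucose comparisons, and Slc40a1 in both knockout comparisons. Tfrc is filled for glucose in knockout cells, and Ncoa4 for the knockout at 16.7 mM.

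Loss of Pcbp2 was accompanied by lower Slc40a1 at both glucose concentrations. At 2.8 mM, Slc40a1 was the 1 called gene of the 10, lower in the knockout, where 2.04% of all tested genes were called and 1.78% were called lower. At 16.7 mM, 2 of the 10 were called, Slc40a1 and Ncoa4, both lower, where 1.71% of all tested genes were called and 1.42% were called lower. The ferritin genes and Tfrc, which moved with glucose, had log2 fold changes between −0.27 and 0.28 in the 2 knockout comparisons.

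Slc40a1 was at 109, 101 and 157 CPM in control libraries at 2.8 mM and at 30.5, 56.1, 41.9, 43.8 and 40.8 CPM in the knockout. At 16.7 mM it was at 125, 225, 204 and 89.3 CPM in control and at 62.7, 95.2, 45.8, 47.8 and 70.2 CPM in knockout libraries. Control and knockout did not overlap at 2.8 mM, and at 16.7 mM they overlapped by 1 library on each side, replicate 4 of the control and replicate 2 of the knockout. On the log2 scale Slc40a1 changed by −1.52 ± 0.28 at 2.8 mM (edgeR, adjusted p = 0.00431), 2.87-fold lower, and −1.32 ± 0.26 at 16.7 mM (adjusted p = 0.01), 2.50-fold lower. The call at 2.8 mM was lost without control replicate 3 (−1.30, adjusted p = 0.051) and the call at 16.7 mM without control replicate 3 (−1.18, adjusted p = 0.0528). Without the 3 libraries that stood apart the value at 16.7 mM was −1.44 (adjusted p = 0.0106). Ferroportin is also made by macrophages, whose 9 markers summed to 50 to 199 CPM in the knockout and 87.9 to 167 in control libraries at 2.8 mM, with C1qa called lower and 2 of the 9 log2 fold changes below 0 (median 0.73). At 16.7 mM the sums were 21.6 to 111 and 38.7 to 109 CPM, with none called and all 9 log2 fold changes below 0 (median −0.58). The part of these cells in the Slc40a1 values was not tested.

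Ncoa4 was at 137, 121 and 133 CPM in control and 83.0, 98.6, 81.4, 88.0 and 122 CPM in knockout libraries at 2.8 mM. At 16.7 mM it was at 173, 149.97, 171 and 154 CPM in control and at 114, 118, 101, 95.1 and 93.4 CPM in knockout libraries, with no overlap. Its log2 fold change was −0.46 ± 0.13 at 2.8 mM (edgeR, adjusted p = 0.0901) and −0.64 ± 0.12 at 16.7 mM (adjusted p = 0.00899, called). Without the 3 libraries that stood apart the latter was −0.57 and not called (adjusted p = 0.0521).

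The Ncoa4 values cannot be read without Ncoa4-ps, a single-exon processed copy of Ncoa4 on another chromosome (chr12:119224713-119226590, plus strand, annotated as a transcribed processed pseudogene; Ncoa4 itself is at chr14:31881822-31902234, plus strand). Ncoa4-ps was at 0.306, 0 and 0 CPM in control libraries at 2.8 mM and at 2.34, 0, 0 and 0 CPM at 16.7 mM. It was at 48.4, 40.0, 42.1, 44.4 and 62.1 CPM in knockout libraries at 2.8 mM and at 63.1, 46.6, 52.4, 58.7 and 54.0 CPM at 16.7 mM. All 10 knockout libraries thus held it and 5 of the 7 control libraries were listed at 0 (edgeR, adjusted p = 0.000972 at 2.8 mM and 0.00134 at 16.7 mM). The copy took 28.4% to 38.2% of the sum of both genes in knockout libraries and at most 1.33% in control libraries.

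The sum of Ncoa4 and Ncoa4-ps was 130.5 ± 8.33 CPM in control and 142 ± 24.1 CPM in knockout libraries at 2.8 mM, and 163 ± 12.5 and 159 ± 11.6 CPM at 16.7 mM. With the counts of pseudogene copies added to their parents, the log2 fold change of Ncoa4 was 0.12 at 2.8 mM (edgeR, adjusted p = 0.776) and −0.03 at 16.7 mM (adjusted p = 0.96), so the call was lost. The copies of the other members changed no call.

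The reference sequences of gene and copy are shown because so few bases tell them apart. Over the whole copy, 1876 of 1878 aligned bases were the same as in the leading Ncoa4 transcript of GENCODE M39, with 2 differing and no gap. Both differences lie in exon 8 of 10 of that transcript, in its coding sequence, and are A1390G and G1611A, with the gene's base first, then the position from 1 at the 5′ end of the transcript, then the base of the copy. The differing base is in capitals.
Ncoa4, first site (chr14:31898483-31898503, plus strand): gaaggaagccAtgtataaatg
Ncoa4-ps, first site (chr12:119226014-119226034, plus strand): gaaggaagccGtgtataaatg
Ncoa4, second site (chr14:31898704-31898724, plus strand): agtggcttatGgggcctacgt
Ncoa4-ps, second site (chr12:119226235-119226255, plus strand): agtggcttatAgggcctacgt
Of the 1848 windows of 31 bases in the copy, 62 (3.35%) are found in no Ncoa4 transcript, and the rest match both. Counts of Ncoa4 and Ncoa4-ps are therefore uncertain as a pair, and which of the 2 loci the reads of the knockout libraries came from was not tested.

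**Figure D3:**
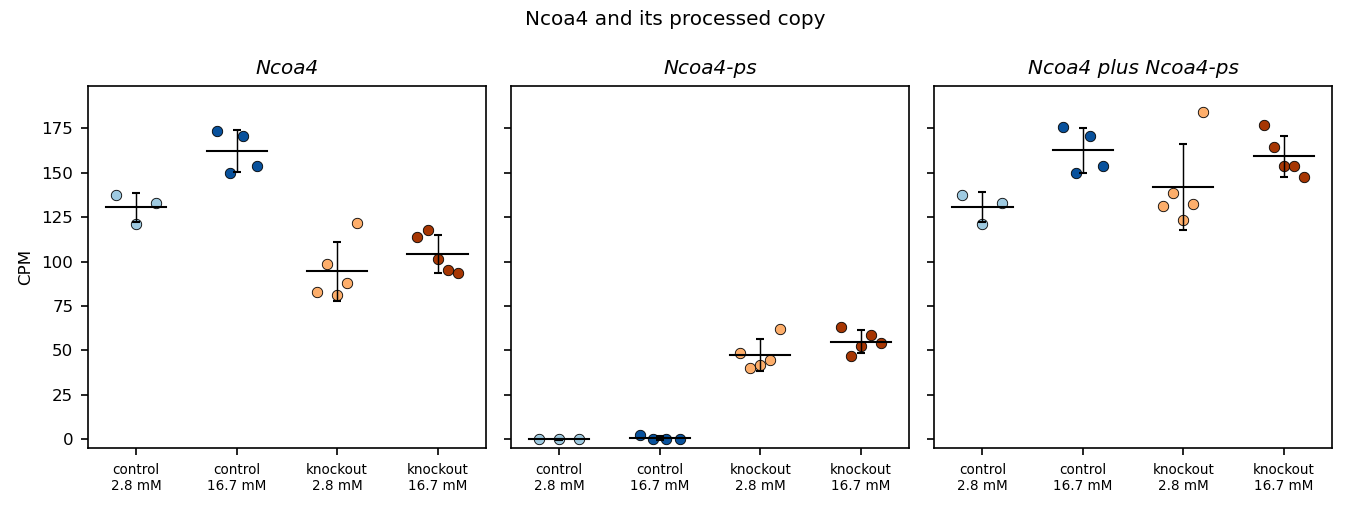
CPM (linear axis) of Ncoa4, of its processed copy Ncoa4-ps and of their sum, 1 point per library, with group means ± SD. Ncoa4-ps is at 0 to 2.34 CPM in the 7 control libraries and at 40.0 to 63.1 CPM in the 10 knockout libraries, and the sums of control and knockout libraries overlap at both glucose concentrations.

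Ftl1 has a near copy too. Ftl1-ps1 (chr13:74547778-74556113, plus strand, annotated as protein coding) shares 906 of 910 aligned bases with the leading Ftl1 transcript, and 16.74% of its windows of 31 bases are its own. It was at 2.25 to 15.9 CPM and, like Ftl1, was called lower with glucose in both genotypes, with a log2 fold change of −1.21 ± 0.35 in control and −1.61 ± 0.30 in knockout cells (edgeR, adjusted p = 0.0267 and 0.000646). Adding it to Ftl1 left the fold changes of Ftl1 at −1.52 and −1.78. Fth-ps2, a processed copy of Fth1 with 85.88% identity, was not called in any comparison.

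The other 8 genes were not called between genotypes at either glucose concentration. The values of Hmox1 were lower in the knockout at 2.8 mM, at 52.0, 33.7, 44.9, 31.7 and 62.3 CPM against 88.7, 83.6 and 66.7 CPM in control, with no overlap, but its log2 fold change of −0.83 ± 0.34 did not pass (edgeR, adjusted p = 0.288). At 16.7 mM the Hmox1 groups overlapped, with −0.57 ± 0.31 (adjusted p = 0.515). Slc11a2 had −0.23 ± 0.16 and −0.38 ± 0.15 (adjusted p = 0.623 and 0.283), Ireb2 −0.29 ± 0.14 and −0.17 ± 0.13 (0.372 and 0.689), and Aco1 −0.20 ± 0.16 and −0.06 ± 0.14 (0.656 and 0.921), at 2.8 and 16.7 mM. Fth1 had 0.28 ± 0.21 and 0.22 ± 0.20 (adjusted p = 0.658 and 0.75), Ftl1 −0.01 ± 0.33 and −0.27 ± 0.30 (0.995 and 0.812), and Tfrc 0.01 ± 0.25 and −0.02 ± 0.23 (0.993 and 0.987). For Steap1, with −0.17 ± 0.78 and −0.42 ± 0.73 (adjusted p = 0.964 and 0.891), the errors allow large differences in either direction.

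Whether the response to glucose differed between genotypes was tested as an interaction. None of the 10 genes was called by edgeR, where 0.00439% of all tested genes were called, none had an unadjusted p under 0.05, and none was called by DESeq2 or limma. The estimates ran from −0.26 ± 0.45 for Ftl1 to 0.26 ± 0.47 for Hmox1, all with an adjusted p of 1. Tfrc was called for glucose in knockout cells and not in control cells, but the difference between the genotypes, −0.04 ± 0.34, did not pass.

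At the level of transcripts, 2 of the 10 genes had more than 1 transcript with at least 10% of the gene's TPM. The leading transcript of Slc11a2 held 62.0%, 52.8% and 61.6% of the gene's TPM in control libraries at 2.8 mM, 52.3% to 72.0% at 16.7 mM, and 61.7% to 75.6% and 68.3% to 74.8% in knockout libraries at the 2 concentrations. Its share was higher in the knockout by 8.07 percentage points at 2.8 mM and by 9.96 points at 16.7 mM (exact permutation tests, p = 0.0536 and 0.0556, adjusted over 8 tests 0.143 for both). The leading transcript of Ncoa4 held 66.4% to 73.96% and 65.6% to 77.2% in control libraries and 58.8% to 66.5% and 61.8% to 73.0% in knockout libraries, with differences of −6.19 and −6.57 points for the knockout (exact p = 0.0357 and 0.0714, adjusted 0.143 for both). With shares of estimated counts in place of TPM, all 4 of these differences passed (8.69, 13.1, −10.1 and −9.08 points, exact permutation tests, each with an adjusted p of 0.0357). The uncertainty between Ncoa4 and its copy applies to these shares too.

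The genes with the most similar pattern to each called member were taken by the smallest root mean square difference of centred log2 CPM over the 17 libraries, among 10013 genes with a mean of at least 5 CPM. For Fth1 they were Mettl2, Rrp15 and Coq5 (0.14 to 0.15, against an SD of 0.68 for Fth1 itself), and for Ftl1 they were Gm47428, Lonp1 and C1qbp (0.19 to 0.24, SD 1.01). Lonp1 is a protease and C1qbp a matrix protein of mitochondria. For Tfrc they were Ttc3, Rev3l and Otulinl (0.20 to 0.21, SD 0.54), for Ncoa4 Wbp1l, Pnp and Aldh18a1 (0.16 to 0.17, SD 0.35), and for Slc40a1 Uchl1, Adgrf5 and Efna5, at a larger distance from 0.34 upward (SD 0.86). For Steap1 they were Stbd1, Angptl6 and Ddit3 (0.39 to 0.62, SD 2.10), the last a transcription factor of the stress response. Libraries of the same group and the 3 libraries that stood apart shape all of these patterns alike.

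Around the 10 genes, 80 other genes of iron metabolism were listed in 7 groups by function, of which 75 could be tested. With glucose, 6 were called higher and 11 lower in each genotype, 22.7% of those tested, beside 13.8% and 23.8% of all genes. Between genotypes 1 was called higher and 2 lower at each glucose concentration, 4.0% of those tested, Pcbp2 itself being among the lower. The median log2 fold change of the 75 with glucose was −0.06 in control and −0.09 in knockout cells.

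The iron-sulphur cluster list, whose products build and hand on the clusters in mitochondria and cytosol, had 5 of 26 genes called lower with glucose in control cells and 6 of 26 in knockout cells, with none called higher, where 6.69% and 10.4% of all tested genes were called lower. The list's median log2 fold change was −0.27 in control and −0.18 in knockout cells, beside 0.04 and 0.01 over all tested genes. Hspa9, the mitochondrial chaperone of the assembly complex and the list's most abundant gene, went from 1401 ± 173 to 452 ± 264 CPM in control cells (log2 fold change −1.63 ± 0.34, edgeR, adjusted p = 0.00466) and from 1506 ± 116 to 374 ± 179 CPM in knockout cells. Fdx2, the ferredoxin that supplies electrons, fell by 1.59 and 1.94 on the log2 scale. Hscb, a co-chaperone, fell by 1.61 and 1.25, Nfu1, a carrier of clusters, by 1.30 and 1.19, and Lyrm4, a partner of the cysteine desulphurase, by 0.80 and 0.63. Slc25a28, which brings iron into mitochondria, was called lower in knockout cells (−0.75 ± 0.19). Ciapin1 of the cytosolic machinery was not called with glucose but was lower in the knockout at both concentrations (−0.72 ± 0.18 and −0.76 ± 0.17, edgeR, adjusted p = 0.0439 and 0.0239).

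Among iron chaperones, Glrx3, a cytosolic glutaredoxin, went from 169 ± 29.9 to 75.5 ± 7.61 CPM with glucose in control cells (log2 fold change −1.16 ± 0.16, edgeR, adjusted p = 0.000514) and fell by 1.19 on the log2 scale in knockout cells. Pcbp2 itself was called lower with glucose in control cells (−0.63 ± 0.18, adjusted p = 0.0208). The chaperone list had these 2 of 6 genes called lower in each genotype and none higher, beside 6.69% and 10.4% of all tested genes called lower, and in knockout cells the Pcbp2 counts are what remains of the deleted gene's transcript.

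The uptake and reduction list had 2 of 10 genes higher and 1 lower in control cells, and 1 higher and 2 lower in knockout cells. Of all tested genes, 13.8% and 23.8% were called in these comparisons. The called genes of this list were all scarce, at a group mean of at most 5.18 CPM. Tfr2, the second transferrin receptor, was lower in both (−2.38 ± 0.70 and −2.02 ± 0.61), Slc39a8, a zinc and iron importer, was higher in both (1.71 ± 0.53 and 1.67 ± 0.43), Cybrd1, a ferrireductase, was higher in control cells (1.73 ± 0.56) and Trf, transferrin, was lower in knockout cells (−2.03 ± 0.41). Steap2 was the most abundant gene of this list and was not called.

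Of the 6 export and ferroxidase genes that could be tested, of 8 listed, Abcg2, a transporter that exports haem-related porphyrins and urate, was called in all 4 comparisons and always higher. It went from 2.82 ± 0.983 to 7.71 ± 1.05 CPM with glucose in control cells and from 5.75 ± 0.916 to 19.4 ± 4.77 CPM in knockout cells. The knockout was higher by 1.03 ± 0.25 on the log2 scale at 2.8 mM (edgeR, adjusted p = 0.0338) and by 1.33 ± 0.22 at 16.7 mM (adjusted p = 0.00251). Slc48a1, a haem transporter, was the most abundant of this list and stayed under the fold threshold (−0.52 ± 0.16 and −0.47 ± 0.14 with glucose).

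Of the 9 regulators tested of 12, Hfe, which binds the transferrin receptor, was lower with glucose in control cells (−1.24 ± 0.40, edgeR, adjusted p = 0.0419), and Herc2, a ubiquitin ligase, was higher in both genotypes (0.61 ± 0.18 and 0.67 ± 0.15). In the haem list 2 of 12 genes were called lower in control cells and 1 in knockout cells. Of all tested genes, 6.69% and 10.4% were called lower. Alad, an enzyme of haem synthesis, and Hmox2, the constitutive haem oxygenase and the list's most abundant gene, were lower in control cells (−0.67 ± 0.18 and −0.60 ± 0.18), and Blvrb, a biliverdin reductase, was lower in knockout cells (−1.06 ± 0.35). Among 6 targets of the oxidative stress factor Nfe2l2, of which Hmox1 is another, Srxn1 was higher in both genotypes (0.87 ± 0.23 and 0.60 ± 0.19) and Slc7a11, the cystine importer, in knockout cells (1.46 ± 0.30).

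**Figure D4:**
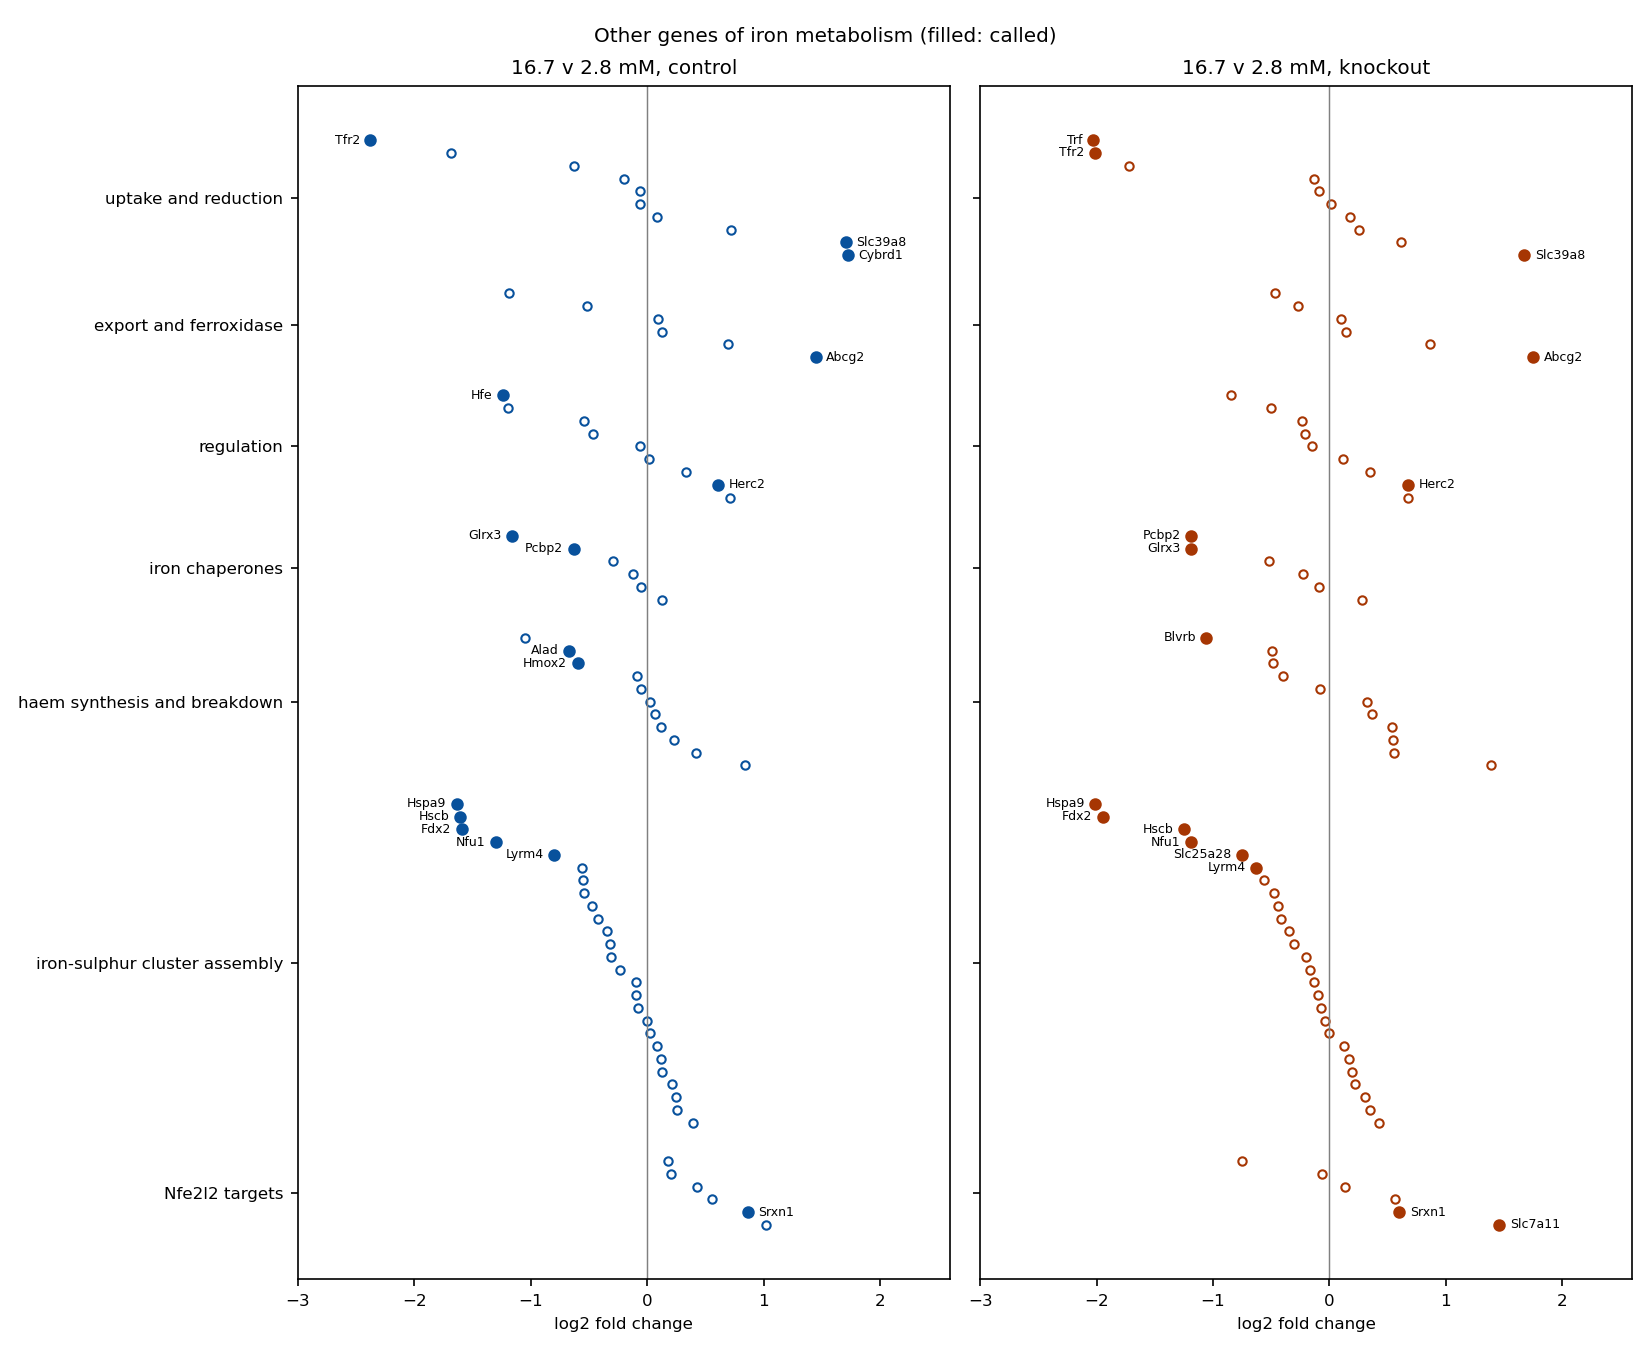
Log2 fold change at 16.7 against 2.8 mM glucose of tested genes from the 7 lists of iron metabolism, in control cells (left) and knockout cells (right), with filled, named points for called genes. In the iron-sulphur cluster list the 5 and 6 called genes all lie below 0, and Abcg2 is the called gene of the export list in both panels.

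The promoter table (RefSeq, GRCm38.p6, 1 window around each start) held 11 entries for 7 of the 10 genes. The letters TGACNNNGC, the core of sites for Nfe2l2 and its partners, were found on either strand in 1 of the 11, an entry of Ncoa4, beside 12.4% of all 32851 promoters. CACGTG, found in 7.15% of all promoters, was in none of the 11, and neither was CAGTG in the 50 bases after the start, found in 7.2% of all. No match says only that these letters are absent from these windows. The hairpins shown above begin at base 93 (Fth1), 84 (Ftl1), 172 (Slc40a1) and 3326 or later (Tfrc) of the leading transcripts. They lie beyond 50 bases from those starts, so the CAGTG search in that window does not bear on them.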

How the data were processed

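RNA of sorted β cells was measured in 17 libraries. Per the labels and methods, the authors quantified reads with Kallisto against the GRCm39 (mm39) transcriptome, and the deposited values are estimated counts and TPM per transcript, with replicates not pooled and with the effective length (another column, used for length scaling only). Versions are not given in the sources used here. The authors' edgeR design held a batch factor whose levels are not given in the sources used here and so could not be included. For this report, estimated counts of 142376 transcripts were summed per gene (55357 genes) and rounded to whole numbers. One edgeR (4.0.16) quasi-likelihood fit of 4 group means over all 17 libraries used filterByExpr and TMM factors (0.752 to 1.288), with Benjamini-Hochberg adjustment over 22784 genes. The fit was tested on simulated data. Kallisto's TPM divide by a library total, so genes that take a large share of it lower the rest, and TMM offsets this. Pseudoalignment shares reads between near-identical copies by estimation. No 2 replicates agreed within sampling noise (lowest chi-square per gene 32.3). The 10 members, the lists and the 3 libraries left out together were chosen with earlier results of these data known. The text names all members, the 3 of their 6 pseudogene copies that passed the filter, Pcbp1 and Pcbp2, called genes and the most abundant gene of each list, the 3 nearest patterns per called member, and marker genes for cell type, except 1 called gene of the lists that is not reported here.

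Shares were compared with exact permutation tests, two-sided, with Benjamini-Hochberg adjustment. Control replicates with the same number had r = 0.20, 0.12 and 0.26 between glucose concentrations (deviations from group means). The numbers were taken as matched in the replicate block only, which is an assumption. The main fit and the exact permutation tests did not use pairs. No r between libraries of different numbers is given here, so whether the numbers mark true pairs was not tested. A library that stood apart also shifts its group mean, and so the deviations of the others. In each other comparison some pair sharing a number had r under 0.1. The replicate block was run there too, as an alternative only. It matched libraries by number within each genotype for glucose and the interaction, and across genotypes for the knockout comparisons. The largest r was 0.35, between replicate 4 of control and of knockout cells at the higher glucose concentration, which both stood apart. The alternatives were other scaling, filters, DESeq2 (1.42.0), limma (3.58.1) on log2(TPM + 1) and log2(TPM + 0.1), the replicate block, pseudogene counts, and leaving out libraries. With read depths of 47385513 to 82419400, replicate spread and not counting error sets the precision. Python 3 scripts with numpy and Biopython read the sequences from GENCODE M39. Of the 69 transcripts of the members and their copies, all matched by name and 56 had the same length.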

Additional observations from a re-analysis of the deposited data

Results flagged for a closer look

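Of 39 groups of 4 or 5 libraries tested for a value far from the rest (Dixon's test at 95%), 6 held one, where chance gives about 1 in 20. Steap1 was at 36.7 CPM in replicate 4 of control cells at 16.7 mM, beside 2.42 to 5.04 in the others, and at 28.5 CPM in replicate 4 of knockout cells at 16.7 mM, beside 1.98 to 5.70. Fth1 was at 1802 CPM in replicate 5 of knockout cells at 2.8 mM, beside 1145 to 1218, and the heavy chain share of ferritin was 16.1% in the same library, beside 12.4% to 13.46%. Aco1 was at 48.3 CPM in replicate 5 of knockout cells at 16.7 mM, beside 62.3 to 66.4. The leading transcript's share of Ncoa4 was 58.8% in replicate 1 of knockout cells at 2.8 mM, beside 64.35% to 66.5%.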

How the results depend on the processing

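The counts of called genes among the 10 were 3 and 4 with glucose in control and knockout cells. They rose to 7 and 9 with limma on log2(TPM + 1) and on log2(TPM + 0.1), all called lower. The median of all genes was −0.24 and −0.33, or −0.56 and −0.71. The number called over all 22784 genes rose as well, from 3153 and 5431 to 6975 and 8831, or 8902 and 12449. In control cells the count was 5 with the replicate block and 5 without the 3 libraries that stood apart, both times with Tfrc and Hmox1 added. Over all genes, these settings called 5024 and 4898. The control count was 4, with Tfrc added, with total counts, the DESeq2 Wald test, no filter and a minimum of 5 CPM. Over all genes, these called 4837, 3921, 3118 and 2438, the last 2 from other sets of tested genes. The block there leaves out replicate 4 at 16.7 mM in effect, since it has no partner. At 16.7 mM the knockout count of 2 became 1 with pseudogene counts added and 1 without the 3 libraries. Leaving out 1 library at a time gave 2 to 4 and 4 with glucose, 0 to 1 for the knockout at 2.8 mM and 1 to 2 at 16.7 mM. The interaction count was 0 throughout. In the other comparisons the replicate block changed no call among the 10. Over all genes, the counts called with glucose were 2438 to 8902 in control and 3204 to 12449 in knockout cells, and the knockout counts were 270 to 835 at 2.8 mM and 190 to 726 at 16.7 mM, over all alternatives but the leave-outs. The heavy chain share in knockout cells ranged from 6.03 to 8.16 points with 1 library left out, and passed without replicate 4 at 16.7 mM (exact permutation test, adjusted p = 0.0317). With shares of counts, the leading transcript's differences were −3.55 (reversed) for Slc11a2 with glucose in control cells, 8.69 and 13.1 for Slc11a2 and −10.1 and −9.08 for Ncoa4 in the knockout. With 1 library left out, the Slc11a2 share with glucose in control cells ranged from −1.91 to 4.67 and that of Ncoa4 in knockout cells from −0.44 to 2.36.

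Log2 fold changes that took the other sign are given here, none of them of a gene called in that comparison with the TMM-scaled counts. On both TPM scales limma called some of them, lower: Ireb2 and Aco1 in control cells (adjusted p = 0.0103 and 0.0186 on log2(TPM + 1)), and Slc11a2, Ncoa4, Ireb2 and Aco1 in knockout cells (0.000788, 4.59e-06, 0.00287 and 0.00157). The cause was not tested, but total counts and TPM leave the median of all genes below 0. With glucose in control cells, total counts gave −0.028 for Slc40a1, −0.079 for Ncoa4, −0.20 for Ireb2 and −0.34 for Aco1. log2(TPM + 1) gave −0.52 for Slc40a1, −0.39 for Slc11a2, −0.48 for Ncoa4, −0.65 for Ireb2 and −0.69 for Aco1, and log2(TPM + 0.1) gave −0.53, −0.43, −0.49, −0.74 and −0.74. Aco1 was at −0.0079 with the replicate block and −0.030 without the 3 libraries. With glucose in knockout cells, total counts gave −0.14 for Slc11a2, −0.35 for Ncoa4, −0.18 for Ireb2 and −0.30 for Aco1. log2(TPM + 1) gave −0.52 for Slc40a1, −0.66 for Slc11a2, −0.83 for Ncoa4, −0.61 for Ireb2 and −0.77 for Aco1, and log2(TPM + 0.1) gave −0.56, −0.72, −0.86, −0.70 and −0.83. For the knockout at 2.8 mM, Ftl1 was at 0.11 with total counts, 0.030 with a minimum of 5 CPM, 0.14 with both TPM scales and 0.0 without the 3 libraries, Tfrc was at −0.0086 with length-scaled counts and −0.056 with the replicate block, and Ncoa4 was at 0.12 with its copy. At 16.7 mM the replicate block gave 0.068 for Tfrc, 0.033 for Aco1 and 0.058 for Steap1, and without the 3 libraries they were at 0.059, 0.060 and 0.32. The interaction of Ftl1 was 0.018 with the replicate block and −0.59 to 0.078 with 1 library left out. Other ranges over leave-outs that crossed 0 were those of Aco1 with glucose in control cells (−0.063 to 0.16), of Ftl1 (−0.15 to 0.066), Tfrc (−0.15 to 0.19) and Steap1 (−0.43 to 0.15) for the knockout at 2.8 mM, and of Aco1 (−0.13 to 0.009), Ftl1 (−0.61 to 0.067), Tfrc (−0.17 to 0.25) and Steap1 (−1.53 to 1.19) at 16.7 mM.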
